A study of Mus musculus with 3 samples.

Results

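The guanylate-binding proteins described here are 6 genes of the mouse Gbp family, Gbp2, Gbp3, Gbp5, Gbp6, Gbp7 and Gbp10, out of 45616 features (22908 of them named genes) measured on 3 one-colour Agilent arrays. The genes were chosen from earlier results of these same arrays, in which several of them stood higher in the cells given the Mst1r vector than in the control, so their values in that comparison describe the choice and support nothing beyond it. Every member was found on the array, each through 1 probe printed in a single spot, and 4 other genes with a Gbp symbol and a probe (Gbp2b, Gbp4, Gbp8 and Gbp9) were read beside them. The cells were Hepa1c1c7, an established mouse hepatoma line. They were transfected with an empty vector (pCMV6-Kan/Neo), with an open reading frame clone of Mst1r, a receptor tyrosine kinase also called RON, or with one of Slpi, a secreted inhibitor of leukocyte serine proteases, and total RNA was taken a day later. No selection of transfected cells is described, so the RNA is that of the whole culture. Each group is 1 culture on 1 array, made from 100 ng of RNA, and no animal or drug treatment was involved. With 1 array a group there is no test, and no p-value is given.

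Guanylate-binding proteins are large GTPases that cells make in quantity after interferon-gamma and, to a lesser extent, after type I interferons. They gather on the vacuoles and membranes that hold intracellular bacteria and parasites, in part through a lipid anchor added to a CaaX motif at the end of Gbp2, Gbp2b and Gbp5, and they promote the opening of those vacuoles and the activation of inflammasomes. Promoters of interferon-inducible genes can hold palindromic interferon-gamma activated sites (GAS) and interferon-stimulated response elements, and the latter are bound by interferon regulatory factors such as IRF1. In the mouse the genes lie in clusters on chromosomes 3 and 5. In the order of the RefSeq annotation, with pseudogenes left out, the chromosome 3 cluster runs Gbp5, Gbp7, Gbp3, Gbp2b, Gbp2. The chromosome 5 cluster runs Gbp8, Gbp9, Gbp4, Gbp10, Gbp6. Of the members, 4 belong to the chromosome 3 cluster and 2 (Gbp10 and Gbp6) to the other.

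The promoters of the 4 chromosome 3 members are shown because they differ in the signals described below and promoters of this family are known to carry response to interferon. Those of Gbp6 and Gbp10 were not analysed here. Each run holds the 250 bases before the annotated start, 5′ to 3′, on the plus strand of GRCm38.p6, from RefSeq. Capitals mark matches to 2 motifs of 9 letters searched on both strands, the GAS palindrome TTCNNNGAA and the interferon-response core GAAANNGAA, whose matches here all read on the opposite strand. The windows lie at chr3:142620413-142620662 for Gbp2, chr3:142496684-142496933 for Gbp5, chr3:142530086-142530335 for Gbp7 and chr3:142559794-142560043 for the more upstream of the 2 annotated starts of Gbp3.
Gbp2: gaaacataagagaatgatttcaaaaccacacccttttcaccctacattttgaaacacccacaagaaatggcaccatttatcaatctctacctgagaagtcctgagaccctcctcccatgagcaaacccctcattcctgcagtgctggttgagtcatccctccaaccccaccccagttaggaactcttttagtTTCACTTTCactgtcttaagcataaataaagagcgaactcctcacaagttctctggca
Gbp5: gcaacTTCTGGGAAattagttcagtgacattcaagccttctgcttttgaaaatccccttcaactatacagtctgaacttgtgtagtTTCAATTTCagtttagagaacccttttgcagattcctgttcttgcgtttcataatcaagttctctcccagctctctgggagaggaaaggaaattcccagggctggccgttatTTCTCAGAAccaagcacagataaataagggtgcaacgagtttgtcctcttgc
Gbp7: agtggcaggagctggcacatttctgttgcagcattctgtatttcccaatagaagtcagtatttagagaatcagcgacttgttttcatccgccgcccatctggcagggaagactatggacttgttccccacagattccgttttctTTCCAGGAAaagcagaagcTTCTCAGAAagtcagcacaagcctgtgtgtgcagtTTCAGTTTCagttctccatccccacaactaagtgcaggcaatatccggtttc
Gbp3: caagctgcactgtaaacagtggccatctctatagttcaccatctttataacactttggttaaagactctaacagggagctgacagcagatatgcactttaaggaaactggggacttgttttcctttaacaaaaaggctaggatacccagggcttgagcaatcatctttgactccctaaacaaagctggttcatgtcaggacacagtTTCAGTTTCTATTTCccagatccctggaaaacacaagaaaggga

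All 4 windows held the interferon-response core. In Gbp2 it was TTCACTTTC, 58 bases before the start. In Gbp5 it was TTCAATTTC at 164 bases, and in Gbp7 TTCAGTTTC at 52 bases. The Gbp3 window held 2 overlapping matches, TTCAGTTTC at 44 bases and TTCTATTTC at 38 bases, while the window of its other start held no match to either motif. The GAS palindrome was present in Gbp5 (TTCTGGGAA at 245 bases and TTCTCAGAA at 52 bases) and Gbp7 (TTCCAGGAA at 106 bases and TTCTCAGAA at 87 bases), and these letters were not in the windows of Gbp2 and Gbp3. The window of Gbp2b, which lies between Gbp3 and Gbp2, held 1 core match, TTCACTTTC at 136 bases, and no GAS match. Over all 32851 promoter windows of the same length, 7.02% held the GAS palindrome and 7.13% the core. A match is a description of the letters and not a shown binding site.

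The signals of the members are given as processed signals, the background-subtracted intensity of the scanner software, before any scaling between arrays. Differences are between log2 signals after each array was divided by its 75th percentile, and ± is the SD expected for such a difference from probes printed 10 or more times on each array. It covers error between spots and not variation between cultures. In RNA from a whole culture, a change in the number of cells that express a gene and a change in RNA per cell cannot be told apart.

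Across the series, 46.7% to 48.5% of the 56605 probes were well above background (the scanner software's own flag for a spot), and the 75th percentile of signal was 229 to 268. The transfected genes did not check the labels. The Mst1r probe, made to another transcript than the cloned one, did not clear background anywhere (4.15, 4.08 and 3.70 with empty, Mst1r and Slpi vector). Slpi, whose probes carry the accession of the clone, had 6459, 3843 and 6680 by its brighter probe and 106, 91.7 and 85.8 by the other, so that Slpi vector minus empty vector was 0.13 ± 0.13 and -0.23 ± 0.27, no higher than the error between spots. Whether these probes lie in the cloned reading frames was not analysed, and each direction given here rests on the labels of the arrays. The paper reports by real-time PCR that Mst1r and IL33 were raised in this line after transfection with Mst1r. It does not state whether the RNA used for PCR was that on these arrays. Of 8 hepatocyte markers, Alb, Afp, Trf, Krt8 and Krt18 had a mean signal over 50 and Hnf4a stayed at background throughout, and the summed scaled signal of the list, most of it from Krt18 and Krt8, was 1094, 1084 and 1089. With Mst1r vector against empty vector Alb was higher by 0.57 ± 0.13 (0.44 ± 0.12 by its other probe), and Trf differed by -0.21 ± 0.08 (-0.36 ± 0.11 by its other probe). Among 8 leukocyte markers, Ptprc, Adgre1 and Nkg7 stayed at background on all 3 arrays. The summed scaled signal of that list was 21.6, 27.4 and 22.4, and Csf1r was higher with Mst1r vector by 0.45 ± 0.12. Of 3 endothelial markers, Cdh5 and Kdr stayed at background on all 3 arrays and Pecam1 was well above it at 35.9, 32.1 and 24.1. The part of these markers in the values of the members was not tested.

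Gbp2 (NM_010260), a lipid-anchored member that coats parasite vacuoles, had a signal of 295 with empty vector, 3926 on the array labelled Mst1r and 255 with Slpi vector. The Mst1r array stood apart and the other two arrays lay close together. The log2 difference of Mst1r vector minus empty vector was 3.96 ± 0.13, a 15.6-fold higher level, and that of Mst1r vector minus Slpi vector was 4.09 ± 0.21, or 17.1-fold. Slpi vector minus empty vector was -0.13 ± 0.22, less than the error between spots. Before background subtraction, the median pixel intensity of the spot was 348, 4036 and 297.5 on the 3 arrays over a local background of 21 to 23. Among the 19249 features well above background on every array, 4 had a difference between Mst1r and empty vector at least as high, Gbp2 itself included.

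Gbp5 (NM_153564), a lipid-anchored member linked to activation of the NLRP3 inflammasome, had a signal of 35.3 with empty vector, 234 on the Mst1r array and 33.2 with Slpi vector. It was well above background on all 3 arrays but below a signal of 50, the minimum that the methods set, on both arrays without Mst1r vector. The difference of Mst1r vector minus empty vector was 2.96 ± 0.38, or 7.78-fold, and that of Mst1r vector minus Slpi vector was 2.97 ± 0.38, or 7.84-fold. With Slpi vector against empty vector it was -0.01 ± 0.46. Counting Gbp5 itself, 27 of the 19249 features were at least as much higher with Mst1r vector than with empty vector. Its spot medians of 60, 281 and 59.5 stood over local backgrounds of 26, 24 and 27.5, so the size of the ratio depends on how the background is taken away. It was 1.98 on the log2 scale under normexp background correction, against 3.61 for Gbp2.

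Gbp7 (NM_145545), a member linked to the delivery of oxidase subunits and autophagy proteins to bacteria, had a signal of 47.0 with empty vector, 77.4 on the Mst1r array and 43.2 with Slpi vector. The Mst1r array was again the brightest, by 0.95 ± 0.38 over empty vector, or 1.93-fold, and by 0.99 ± 0.38 over Slpi vector, or 1.99-fold. Both values lay just under the 2-fold line. Over the settings tried the difference from Slpi vector ranged from 0.57, under normexp background correction, to 1.13, under spike-in scaling, and that from empty vector from 0.68 to 0.99. Slpi vector minus empty vector was -0.04 ± 0.46. A share of 2.4% of the features well above background was at least as much higher with Mst1r vector than with empty vector.

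Gbp3 (NM_018734) had a signal of 1061 with empty vector, 1367 on the Mst1r array and 961 with Slpi vector. The difference of Mst1r vector minus empty vector was 0.59 ± 0.12, or 1.51-fold, and Mst1r vector minus Slpi vector was 0.66 ± 0.13. Slpi vector minus empty vector was -0.06 ± 0.13. The order of the arrays was thus that of Gbp2, with a much smaller gap. A difference at least as high between Mst1r and empty vector was seen in 5.39% of the features well above background.

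Of the chromosome 5 members, Gbp6 (NM_194336) had a signal of 56.2, 71.3 and 48.2 with empty, Mst1r and Slpi vector, an order of arrays like that of Gbp3. Its difference of Mst1r vector minus empty vector was 0.57 ± 0.38 and that of Mst1r vector minus Slpi vector was 0.72 ± 0.38. Gbp10 (NM_001039646), which with Gbp6 and Gbp7 has been tied to defence against mycobacteria, had 81.0, 83.3 and 78.0 on the same arrays. The signals of Gbp10 thus lay nearly level, and its scaled differences of 0.27 ± 0.27 from empty vector and 0.25 ± 0.27 from Slpi vector were no larger than the error between spots. Against empty vector, Slpi vector differed by -0.14 ± 0.46 for Gbp6 and by 0.02 ± 0.27 for Gbp10. Features at least as much higher with Mst1r vector than with empty vector made up 5.67% for Gbp6 and 14.7% for Gbp10.

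**Figure D1:**
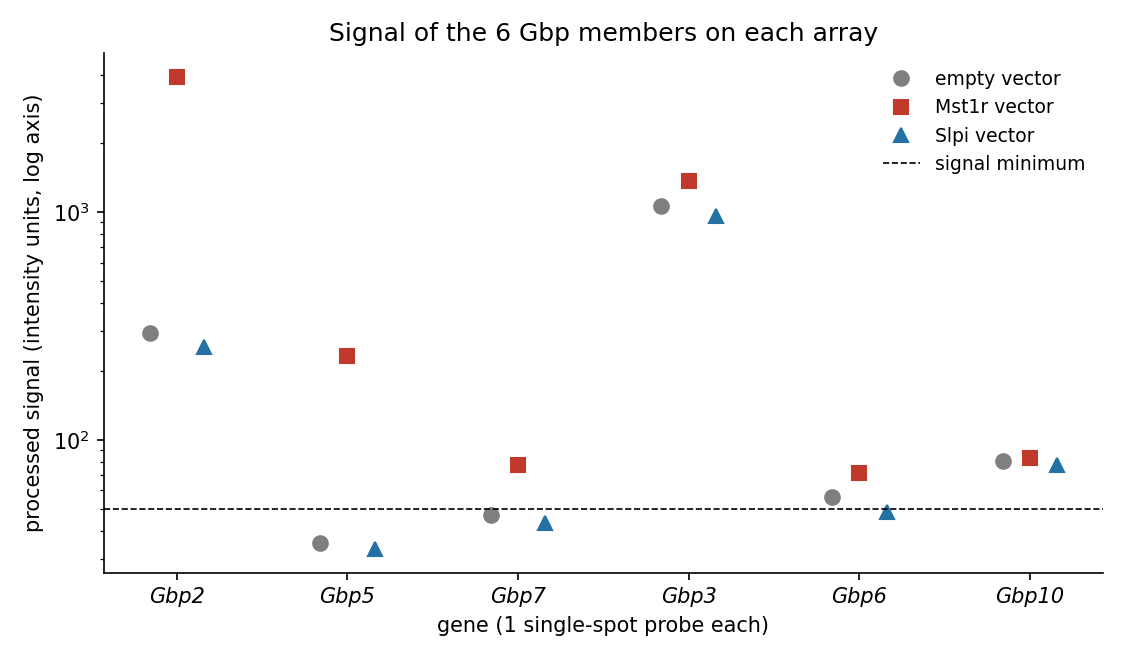
Processed signal (intensity units, log axis) of the 6 Gbp members on the 3 arrays, 1 point per array, with the signal minimum of 50 as a dashed line. Gbp2 stood at 3926 on the Mst1r array against 295 and 255 on the others and Gbp5 at 234 against 35.3 and 33.2, whereas the 3 points of Gbp10 lay between 78.0 and 83.3. Levels of different genes come from different probes and cannot be compared.

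Taking the members together, all 6 were higher on the Mst1r array than on the empty vector array, with a median log2 difference of 0.77 and a range from 0.27 to 3.96. At least 2-fold higher were 2 of 6, Gbp2 and Gbp5, where 4.34% of the 18010 features with a signal over 50 on the brighter array were 2-fold higher and 3.39% were 2-fold lower. At 10-fold, Gbp2 alone was higher, and 1.6% of features were. Since the members were chosen on this contrast, nothing is read from these counts. Of the 16954 features with a mean signal over 50, 7153 were above 0 and 9801 below, with a median of -0.04.

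Against the Slpi vector array, which is a different array but not an independent contrast because the Mst1r array is the same, the median was 0.85. Again 2 of 6 members, Gbp2 and Gbp5, were at least 2-fold higher, where 4.17% of 17682 features were 2-fold higher and 2.7% lower. Between Slpi and empty vector 1 member was above 0 and 5 were below, from -0.14 to 0.02, where 8655 of 16954 features were above 0 and 8299 below. The median of -0.05 was 0.11 under median scaling and -0.29 under spike-in scaling. Every member was above 0 under the former and below 0 under the latter, so no direction is read from the split. None of the 6 was 2-fold higher or lower, where 2.7% of 17812 features were higher and 3.21% lower. Of the 6 members, 4 had a signal over 50 on the brighter array of that pair, and Gbp5 and Gbp7 had not. Under the reported scaling every Slpi difference of a member was smaller than its error between spots. Those of Gbp2 and Gbp3 were larger than it under spike-in scaling (-0.37 and -0.30), and that of Gbp3 also without scaling (-0.14).

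**Figure D2:**
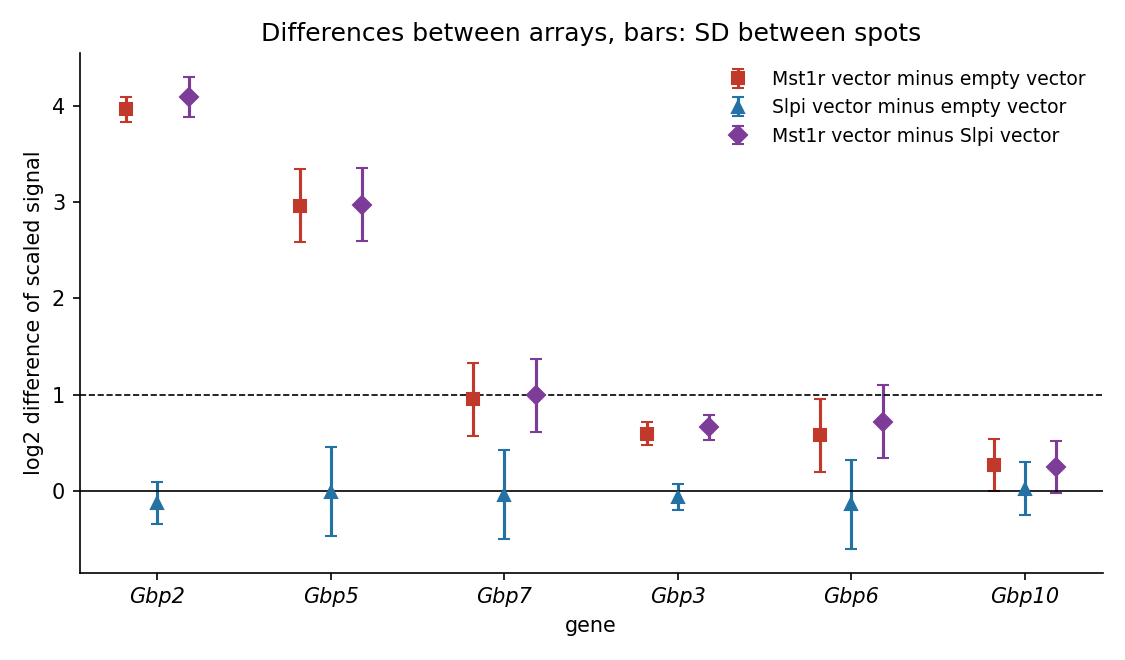
Log2 differences of the scaled signal for each member in the 3 comparisons. Points are values from 1 array against 1 array, bars the SD between repeated spots, and the dashed line marks 2-fold. The differences from the Mst1r array run from 3.96 for Gbp2 down to 0.27 for Gbp10, and those of Slpi vector minus empty vector stay between -0.14 and 0.02.

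The 4 chromosome 3 members had a median difference of Mst1r vector minus empty vector of 1.96, between 0.59 and 3.96, and the 2 chromosome 5 members had 0.57 and 0.27. Within the chromosome 3 cluster, pseudogenes left out, the high values were at its ends, with Gbp5 first in order and Gbp2 last. Gbp7 and Gbp3 between them were lower. In order of their difference, Gbp2 exceeded Gbp5 by more than the error of each value. Gbp5 exceeded Gbp7 by more than that error as well. Gbp7, Gbp3 and Gbp6 lay within the larger error of each pair, and so did Gbp6 and Gbp10. By the smaller error of the pair, Gbp7 exceeded Gbp3 and Gbp6 exceeded Gbp10. Among the 4 members with a promoter shown, Gbp2 and Gbp3 held the core alone in the window printed, and Gbp5 and Gbp7 held both motifs. Whether the motifs bear on the size of the difference was not tested.

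Of the other family genes, none was well above background with empty or Slpi vector. Gbp4 (NM_001256005) had a signal of 9.07 with empty vector, 23.6 on the Mst1r array and 14.9 with Slpi vector. It cleared background on the Mst1r array alone. The lowest signal well above background was 18.9 with empty vector and 16.6 with Slpi vector. Taken against these, Gbp4 was 1.46-fold and 1.59-fold higher with Mst1r vector. The error between spots was 0.86 on the log2 scale for each difference, larger than either ratio, so no lower limit is read from this spot. It lay in row 22, among the rows with stray control spots described below. Gbp2b, Gbp8 (2 probes) and Gbp9 did not clear background on a single array, and no fold is given. Gbp genes are close relatives and a probe can take up transcripts of a relative. The probe sequences were not analysed here, so how far the 6 signals are separate was not tested.

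The members lay in different places on the array, which bears on the reading of single spots. External control probes that were dark by their median (a signal under 15 on every array) strayed above a signal of 50 in 25 to 39 of 2653 spots an array, and nearly all of these lay in rows 1 to 128 of 384 (25 of 25, 37 of 39 and 26 of 27 with empty, Mst1r and Slpi vector). Gbp2 in row 32 and Gbp3 in row 17 lay in those rows. The brightest such control spot had a signal of 207, 289 and 481 with empty, Mst1r and Slpi vector. On the same arrays Gbp2 had 295, 3926 and 255, and Gbp3 had 1061, 1367 and 961. The Gbp2 signal was thus below the brightest stray spot on the Slpi array. The 24 spots within 2 rows and columns of the Gbp2 spot had a median signal of 10.5, 20.1 and 3.81 on the 3 arrays. Gbp5 in row 342, Gbp7 in row 205, Gbp10 in row 161 and Gbp6 in row 133 lay outside those rows. Without rows 1 to 128, the 4 members left had a median difference of 0.76 between Mst1r and empty vector and 0.85 between Mst1r and Slpi vector, and 1 of the 4, Gbp5, was at least 2-fold higher in each. Outside rows 1 to 128, 2.01% of 11152 features were 2-fold higher against empty vector and 1.81% of 11031 against Slpi vector. Of the 781 features 2-fold higher against empty vector, 224 lay outside those rows, and of the 288 that were 10-fold higher, 20 did. Most features called as Gbp2 was therefore lay in the rows with stray control spots. The part of stray signal in the values of Gbp2 and Gbp3 was not tested.

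**Figure D3:**
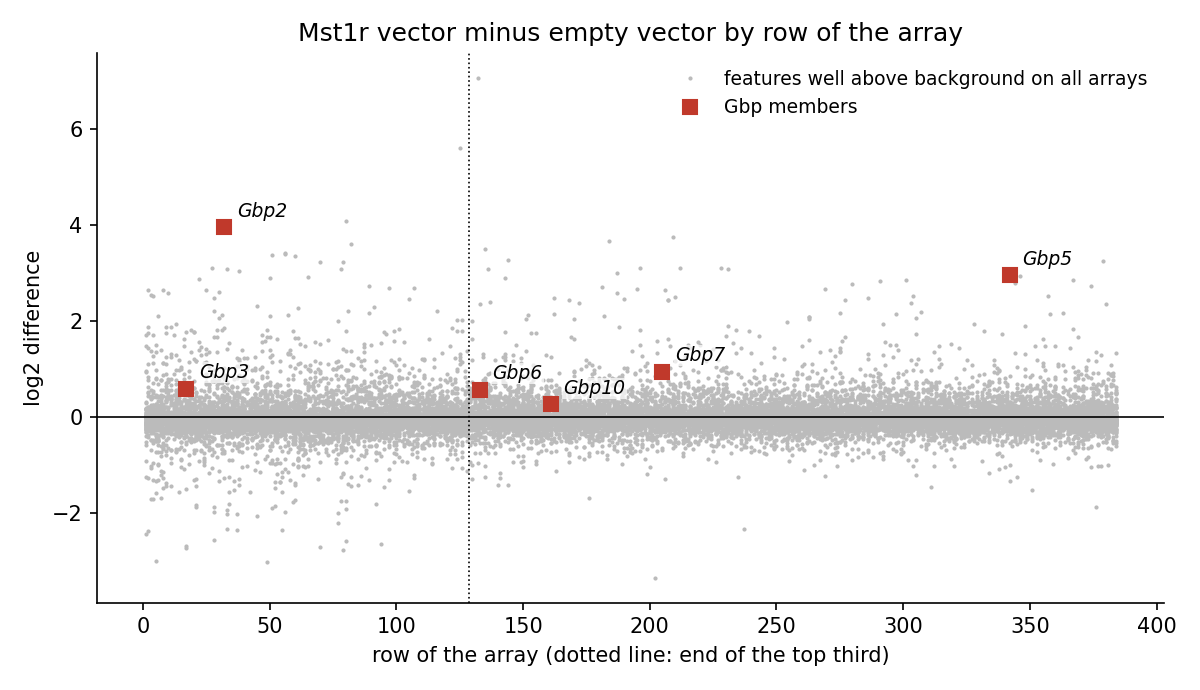
Log2 difference of Mst1r vector minus empty vector against the row of the array, for the 19249 features well above background on all arrays (grey) and the Gbp members (red). The dotted line marks the end of row 128. Gbp2 and Gbp3 sit in the rows where control spots strayed and the other 4 members outside them, with Gbp5 at 2.96 in row 342.

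The chain from interferon to the Gbp promoters was read as a list of 19 genes, of which 18 had a mean signal over 50. Of these 14 were above 0 in Mst1r vector minus empty vector, 3 were at least 2-fold higher and none was 2-fold lower, with a median of 0.33. Among all 16954 features with a mean signal over 50, 7153 were above 0 and 9801 below. Of the 16844 over 50 on the brighter array, 416 were 2-fold higher and 233 lower. The ligand gene Ifng stayed at background throughout (4.06 on the Mst1r array). The receptor genes Ifngr1 and Ifngr2 were lower on the Mst1r array, by -0.37 ± 0.12 and -0.29 ± 0.12. Downstream, Irf1, a factor that binds the core motif, had signals of 3070, 5045 and 3157 with empty, Mst1r and Slpi vector, a difference of 0.95 ± 0.13, and its fainter probe gave 1.04 ± 0.27. Irf1 thus lay near the value of Gbp7 and far below those of Gbp2 and Gbp5.

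The 3 genes of the chain past 2-fold were Batf2, Socs1 and Socs3. Batf2, a basic leucine zipper factor induced by interferon-gamma, was well above background on the Mst1r array alone, at 1029 against 17.0 and 17.5, which is at least 63.7-fold against the empty vector array. The feedback inhibitors Socs1 and Socs3 were higher by 1.48 ± 0.22 and 1.76 ± 0.13. Socs3, with signals of 2267, 6543 and 2147, had the largest difference, by the brightest probe of each gene, among the genes of the chain well above background on all 3 arrays. The fainter probes of Ifnar1 (2.28 ± 0.38 against 0.20 ± 0.14) and Stat2 (-1.50 ± 0.47 against 0.79 ± 0.12), in rows 104 and 32, disagreed with the brighter ones. With Slpi vector against empty vector the median of the chain was 0.00 and none of its genes was 2-fold changed. In that comparison 206 of 16775 features were 2-fold higher and 196 lower.

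Other GTPases made in response to interferon had the highest median of the 5 lists. Of 11 genes listed, 8 had a matched probe and 7 a mean signal over 50, and all 7 were above 0 in Mst1r vector minus empty vector, with a median of 1.13 and 4 at least 2-fold higher. Over all features with such a signal, 7153 of 16954 were above 0 and 416 of 16844 were 2-fold higher. Iigp1, an immunity-related GTPase that loads onto parasite vacuoles, had 310 with empty vector, 2827 on the Mst1r array and 260 with Slpi vector, a difference of 3.42 ± 0.13. Igtp (2278, 4573 and 2072) and Tgtp2 (1954, 3996 and 1980) differed by 1.24 ± 0.13 and 1.26 ± 0.12, and Gvin1 by 1.13 ± 0.27. Irgm1 and Irgm2, regulators of the same family, differed by 0.58 ± 0.13 and 0.59 ± 0.12, close to Gbp3 and Gbp6. Iigp1 in row 56 and Gvin1 in row 70 lay among the rows with stray control spots, and Igtp and Tgtp2 did not. The median of these GTPases with Slpi vector against empty vector was -0.06.

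The machinery for lipid modification and for autophagy conjugation was nearly level by its medians. The 6 genes for lipid modification of CaaX proteins had a median of -0.02 in Mst1r vector minus empty vector, and the highest was Pggt1b, a prenyltransferase subunit, at 0.16 ± 0.14. The 10 autophagy conjugation genes, some of whose products are needed to bring Gbp proteins to vacuoles, had a median of -0.07, with Gabarapl1 highest at 0.42 ± 0.13. None of these 16 genes was 2-fold changed in any comparison. With 416 of 16844 features 2-fold higher and 233 lower against empty vector, nothing is read from that count. Of 8 inflammasome genes, 6 had a mean signal over 50. Their median was 0.20, with 5 above 0 and 1 below, where 7153 of 16954 features were above 0 and 9801 below. At least 2-fold higher was 1, Casp4, the sensor of bacterial lipopolysaccharide, beside the share over all features given above. Casp4 had 2869, 5501 and 3128 on the 3 arrays and a difference of 1.17 ± 0.13. Casp4 lay in row 21, again among those rows.

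**Figure D4:**
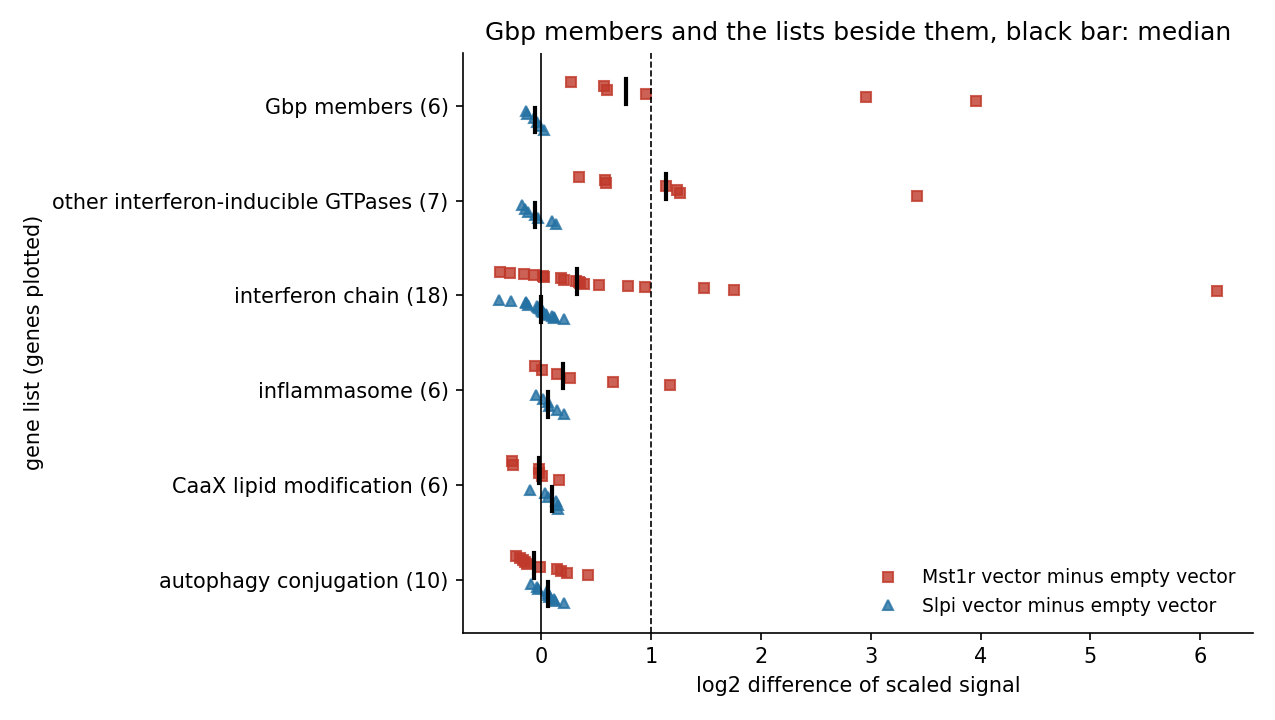
Log2 differences of the Gbp members and of 5 lists of genes that act with them, for Mst1r vector minus empty vector (squares) and Slpi vector minus empty vector (triangles), over genes with a mean signal over 50. Black bars are medians and the dashed line is 2-fold. With Mst1r vector the members (0.77), the other GTPases (1.13) and the interferon chain (0.33) lie to the right of the CaaX (-0.02) and autophagy (-0.07) genes, and with Slpi vector the 6 medians lie near 0.

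By the distance between their 3 scaled log2 values, each centred on its mean, the named genes nearest to Gbp2 among 11159 with a signal over 50 on every array were Iigp1 (distance 0.43), Gm4951 (0.72), Cd274 (1.09), Il6 (1.22) and Cd209d (1.27). No gene lay within the 0.23 that error between spots gives. Nearest to Gbp5 were the same 5 genes in another order, Gm4951 (0.16), Cd274 (0.25), Il6 (0.36), Cd209d (0.40) and Iigp1 (0.46), and these 5 were also all that lay within the error of 0.50. Of these 5, Cd274 and Il6 lay in rows 291 and 286, outside the rows with stray control spots. The likeness rests on 3 arrays and is carried by the single Mst1r array. For the other members more genes lay within the error between spots. Of the 11159 genes, 177 lay within the error of 0.15 for Gbp3 and 520 within 0.50 for Gbp7. For Gbp6, 3041 lay within 0.50, and for Gbp10, 7390 within 0.33. The error differs with the signal of each probe, so these counts are not compared between members. The nearest genes were Ddit3 to Gbp3, Aldh1l1 to Gbp7, Prl3d1 to Gbp6 and Cdh2 to Gbp10.

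**Figure D5:**
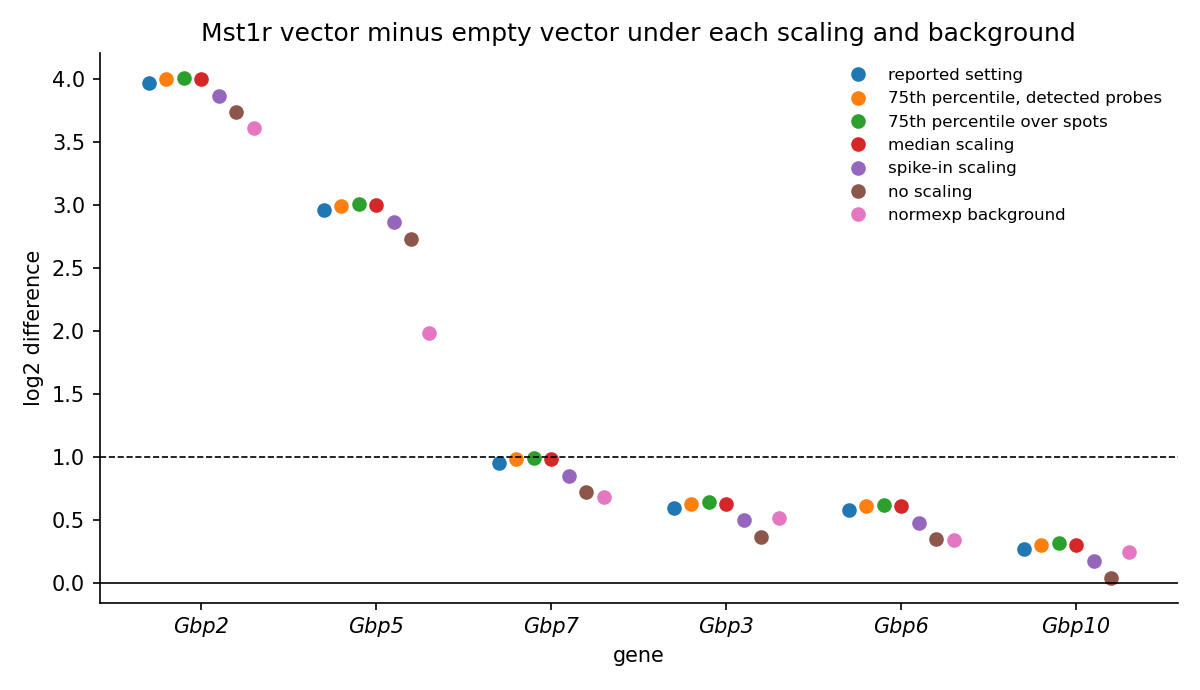
Log2 difference of Mst1r vector minus empty vector for each member under the reported scaling and 6 other settings, 1 point per setting, with 2-fold as a dashed line. Gbp2 stayed between 3.61 and 4.0 and Gbp5 between 1.98 and 3.0, and the other 4 members stayed between 0 and 2-fold, with Gbp10 at 0.04 without scaling.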

How the data were processed

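Total RNA of 3 Hepa1c1c7 cultures was labelled with Cy3 and hybridised to SurePrint G3 Mouse arrays, all on 1 slide and read in 1 scan. The authors deposited scanner files of Agilent Feature Extraction (version 12.0.3.1 per the file headers and the submitters' processing notes), whose processed signal is a linear intensity, background-subtracted and spatially detrended, not scaled between arrays. The design build is mm9. Their series-wide table held the same intensity within 0.01 on the log2 scale for 99.95% of values.

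Here, spots marked as outliers were left out, log2 signals were averaged per probe and the 75th percentile over probes was subtracted. Transcript accessions in the files were matched to RefSeq symbols (25126 of 47837). The probe with the highest mean log2 signal stood for a gene. A feature was counted where it differed at least 2-fold with a signal over 50 on the brighter array. Some genes of the lists are not reported here by name. The members and lists were chosen with earlier results of these data known. The genes named are every Gbp gene with a probe, from each list the gene with the highest difference between Mst1r and empty vector among those well above background on all arrays and those the background describes, genes past 2-fold where a count was 5 or fewer (chosen after their values were seen), and the 5 genes nearest to a member. Other genes of the lists that are named (Ifngr1, Ifngr2, Ifnar1, Stat2, Irgm2 and the cell type markers) were also picked after their values were seen. Calculations used Python 3.11.15, pandas 2.3.3, numpy 2.4.6 and limma 3.58.1 (R 4.3.3, normexp with an offset of 50), and the averaging and error steps were tested on simulated data. With 1 array a group no test was made. The number of arrays limits the precision. Other scalings, background corrections, spot and row filters and folds were tried.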

Additional observations from a re-analysis of the deposited data

How the results depend on the processing

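Of 108 differences of single members under settings that could change them, 95 moved by less than the error between spots and 13 by more. Of those at least 2-fold 0 changed sign, but they lay too far from 0 for these settings to change it. Signs did change for Slpi vector minus empty vector. Under median scaling every member was above 0 (0.02 to 0.19), and under spike-in scaling every member was below (-0.38 to -0.21). A further 66 differences, from keeping outlier spots, averaging probes, the series-wide table and the row filter, were the same values within 0.001 and bear on nothing. The 13 came from normexp background correction (5), no scaling (3), spike-in scaling (3) and median scaling (2). For Mst1r vector minus empty vector, Gbp2 ranged from 3.61 to 4.0, Gbp5 from 1.98 to 3.0, Gbp7 from 0.68 to 0.99 (0.57 to 1.13 against Slpi vector), Gbp3 from 0.36 to 0.64, Gbp6 from 0.34 to 0.62 and Gbp10 from 0.04 to 0.31. The count of members at least 2-fold higher against empty vector was 2 under each scaling, and against Slpi vector it was 3, with Gbp7, when scaling to detected probes, to spike-ins or, a setting chosen after seeing the data, over spots. At 10-fold the count was 1 in each of these comparisons. Without rows 1 to 128, which removes Gbp2 and Gbp3, it was 1 of 4 in each, where 2.01% and 1.81% of features were higher against empty and Slpi vector. Without Gbp2, also chosen after seeing the data, the median was 0.59 against empty vector and 0.72 against Slpi vector. The median of all features moved with no scaling (to -0.27 between Mst1r and empty vector and -0.18 between Mst1r and Slpi vector), with spike-in scaling (to -0.14 and 0.10, and -0.23 between Slpi and empty vector) and with median scaling (to 0.17 between Slpi and empty vector and -0.16 between Mst1r and Slpi vector). Each member has 1 probe, so averaging probes changed nothing. No paired analysis was possible because each group has 1 array, and none could be left out.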
